A study of Drosophila melanogaster with 2 samples.

Results

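The 38 protein-coding genes for cytosolic small-subunit ribosomal proteins of Drosophila melanogaster were examined for regions enriched with GFP-tagged Gcm2 in whole embryos. They were taken from the Ensembl annotation of the dm6 genome as all symbols that begin with RpS and a digit, plus sta, without symbols that contain "like", out of 13968 protein-coding genes. Chromatin immunoprecipitation and sequencing (ChIP-seq) with an anti-GFP antibody was done on mixed-sex embryos aged 0 to 24 h of the strain gcm2-GFP, a stable transgenic line in which GFP is fused to the C terminus of Gcm2, a transcription factor of the glial cells missing family. The 2 libraries, biological replicates 2 and 3, carry the same transgene, come from the same fly line and form 1 group. No untagged or mock library was analysed here, so genes are compared with genes inside these libraries and no test between conditions was possible. The region lists hold 30000 candidates for each replicate and for both replicates pooled, and 2177 regions retained by the irreproducible discovery rate (IDR), which are the 2177 strongest pooled candidates by signal.

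These proteins assemble around the small ribosomal RNA into the subunit that reads the messenger RNA and hosts the start of translation. The genes are transcribed at high levels in nearly all growing cells, and flies heterozygous for loss of many of them show the Minute phenotype of slow growth and thin bristles. Their promoters are known for a pyrimidine-rich initiator (TCT) in place of the usual one and for sites of the factors DREF and M1BP. Gcm and Gcm2 are known for roles in glial and blood cell fate.

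Of the 38 genes, 22 had at least 1 IDR summit no farther than 1 kb from an annotated transcription start site (TSS) (57.9%, 95% Wilson interval 42.2 to 72.2, counting error only), against 12.6% of all protein-coding genes. Any pooled candidate, background regions included, lay within 1 kb at 36 of the 38 genes, against 62.5% of all genes. A candidate was present in both replicates at 36 genes, against 53.2%, and a pooled candidate with a q-value at or below 0.05 at 32 genes, against 31.0%. These shares are descriptions of lists chosen with earlier results known, and were not tested.

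The strength of the regions was described by the authors' signal value and by its rank within a list, where rank 1 is the strongest. Over the 36 genes with a pooled candidate, the strongest one had a median rank of 1511.5, with a range of 56 to 20022, against a median of 6919 over the 8728 protein-coding genes with one. The IDR summits of the 22 genes had a median signal of 90.1, from 60.5 to 317, and those of all 1766 genes with an IDR summit a median of 86.2. The share of small-subunit genes with an IDR summit was thus above that of genes in general, while the 2 median signals lay close together. Both median signals cover only IDR regions, all with a signal of at least 57.8, so they do not compare the genes below that limit. Read depth is unknown from the files, and the signal values carry no replicate error of their own.

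**Figure D1:**
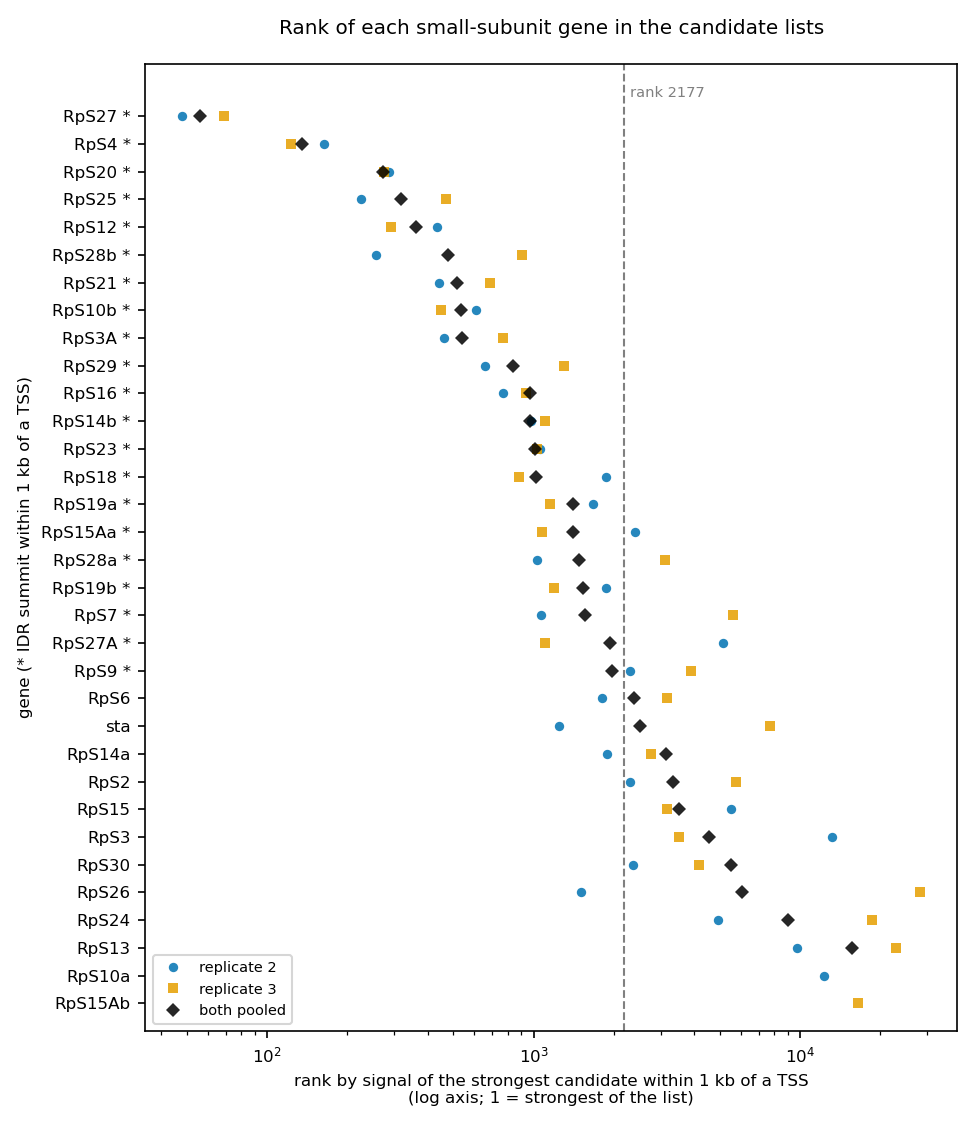
Rank by signal (log axis) of the strongest candidate within 1 kb of a TSS for 33 of the 38 genes, in replicate 2 (circles), replicate 3 (squares) and both pooled (diamonds), ordered by pooled rank. The dashed line marks rank 2177, the size of the IDR list: the 21 genes shown that have an IDR summit (asterisk) lie to its left in the pooled list.

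The strongest region belonged to RpS27, a zinc-binding protein of the subunit body (chr3R:25247408-25247674, dm6), with signal 317 in the pooled list, 173 in replicate 2 and 139 in replicate 3. Its ranks were 56, 48 and 69 in the same lists. RpS4, another protein of the body, followed (chr3L:13041671-13041855) with pooled signal 212, and with 104 in replicate 2 and 105 in replicate 3. RpS4 ranked 164 in replicate 2 and 123 in replicate 3, so both genes stood near the top of both replicates' lists.

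Several proteins of the subunit head came next. The region at RpS20 (chr3R:20821755-20822218) had pooled signal 159, with rank 287 in replicate 2 and rank 275 in replicate 3. RpS25, which contacts viral internal ribosome entry sites, had pooled signal 148 (chr3R:11216283-11216401), with ranks 225 in replicate 2 and 471 in replicate 3. RpS12, known in flies for its role in competition between wild-type and Minute cells, had pooled signal 140 (chr3L:13023092-13023555), with ranks 434 and 291 in replicates 2 and 3. For all 5 genes named so far, the lower of the 2 replicate ranks was 471 or better.

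Next by pooled signal came, among others, RpS28b (124), RpS21 (121), RpS10b (119), RpS3A (119), RpS29 (93.9) and RpS16 (87.0). RpS3A lies on the small chromosome 4 (chr4:67049-67512) and ranked 463 in replicate 2 and 770 in replicate 3. RpS21 ranked 442 and 687, RpS10b 608 and 451, RpS29 658 and 1303, and RpS16 768 and 937 in replicates 2 and 3. Each of these genes had a region among the 2177 strongest of both replicates. The IDR signals of the 10 weakest of the 22 genes ran from 87.0 at RpS14b through RpS23 (85.3), which lines the decoding centre, RpS18 (84.6), RpS19a (72.5), RpS15Aa (72.2), RpS28a (70.4), RpS19b (69.3) and RpS7 (68.4) to RpS27A (60.8), which is made as a fusion to ubiquitin, and RpS9 (60.5).

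The signal range of the genes ran across the edge of the IDR list without a gap. RpS27A and RpS9 lay just inside, with pooled ranks 1944 and 1968, and RpS6 and sta just outside, with pooled signals 55.0 and 53.5 and ranks 2385 and 2514. RpS6, the phosphorylation target of S6 kinase, ranked 1811 in replicate 2 and 3175 in replicate 3. The gene sta, whose product is the fly counterpart of the laminin receptor-related protein of the subunit, ranked 1251 in replicate 2 and 7727 in replicate 3. Of the 16 genes without an IDR summit, 10 had a pooled candidate with a q-value at or below 0.05, against 21.0% of the 12202 protein-coding genes without an IDR summit.

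The remaining genes without an IDR summit covered a wide range of pooled signal. RpS14a had 47.6, RpS2 46.1 and RpS15 44.7. RpS3, a protein at the entry of the mRNA channel, had 38.8, RpS30 34.7 and RpS26, at the mRNA exit, 33.0. RpS24 with 26.8 and RpS13 with 20.1 had pooled q-values above 0.05 (0.118 and 0.361). RpS10a and RpS15Ab had no pooled candidate within 1 kb of a TSS. RpS10a had a candidate in replicate 2 alone, at rank 12324, and RpS15Ab in replicate 3 alone, at rank 16455.

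The summits lay close to the start sites. The offset of the strongest IDR summit from the nearest TSS of the gene had a median of -21 bp (negative is upstream) over the 22 genes, against -127 bp over all 1766 genes with an IDR summit. It was within 100 bp at 18 of 22 genes (81.8%), against 32.3% of all genes with one. Offsets were taken to the nearest annotated TSS, and the 38 genes had a median of 2 TSSs, against 1 for all protein-coding genes. More TSSs per gene make small offsets easier to reach. With only the 5'-most TSS, the median offset of the small-subunit genes was -14 bp. A signed median does not show how far the summits lay from the TSS. Neither the value for all genes nor the shares within 100 bp are given under this rule. How far the number of TSSs enters the contrast is therefore not shown. Counting any IDR summit and all genes, 19 of the 38 had one within 100 bp of a TSS, against 4.39% of protein-coding genes, and 32 of 38 had a pooled candidate there, against 26.2%. A candidate within 100 bp was present in both replicates at 25 genes, against 14.9%. The distance of 100 bp was chosen after the offsets had been seen.

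**Figure D2:**
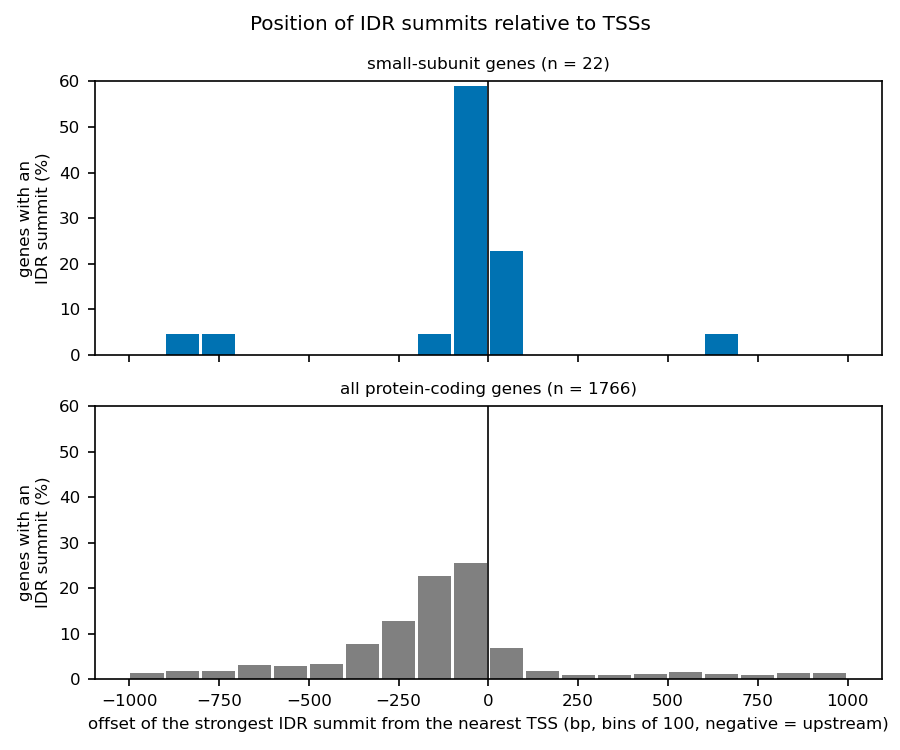
Offset in bp of the strongest IDR summit from the gene's nearest TSS, in bins of 100 bp, as a percentage of the small-subunit genes with an IDR summit (top, n = 22) and of all protein-coding genes with one (bottom, n = 1766). The 100 bp just upstream of the TSS hold 13 of the 22 small-subunit genes (59.1%) and 25.5% of all genes.

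Among single genes, the offset was 2 bp at RpS29, -4 bp at RpS27, -6 bp at RpS23 and -11 bp at RpS19a. It was 14 bp at RpS21 and at RpS7 and 20 bp at RpS4. The farthest of those 18 summits lay at 94 bp, at RpS9, where the summit fell in an intron. The summit lay in the annotated 5' UTR at RpS4, RpS21, RpS29, RpS16, RpS23, RpS15Aa and RpS7. The commonest width of a pooled region is 464 bp, so these positions say where a region was centred and not which base was bound.

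Among the 22 genes, 4 had their strongest IDR summit nearer to the TSS of another protein-coding gene than to their own. At RpS20 the summit lay at -194 bp from its TSS and 139 bp from that of the divergent gene CG17271, and the candidate at the RpS20 TSS itself ranked only 3071. At RpS19b the summit lay at -881 bp and 499 bp from the TSS of CG5854. At RpS28a it was 647 bp downstream of the TSS, beyond the end of this intronless gene, and 220 bp from the TSS of Mgat2. At these 3 genes no IDR summit lay within 100 bp of the gene's own TSS.

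RpS28b, the fourth, had 2 IDR summits. The stronger lay at -743 bp and 130 bp from the TSS of the divergent gene l(1)G0320, and the other, with signal 100.4 and pooled rank 737, lay at -15 bp from the RpS28b TSS. With each summit given to the gene with the nearest TSS, 19 genes kept an IDR summit. The share of all genes under this rule is not given here. RpS27A shares its annotated TSS with Ip259, so the summit at -25 bp cannot be assigned to either gene alone.

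**Figure D3:**
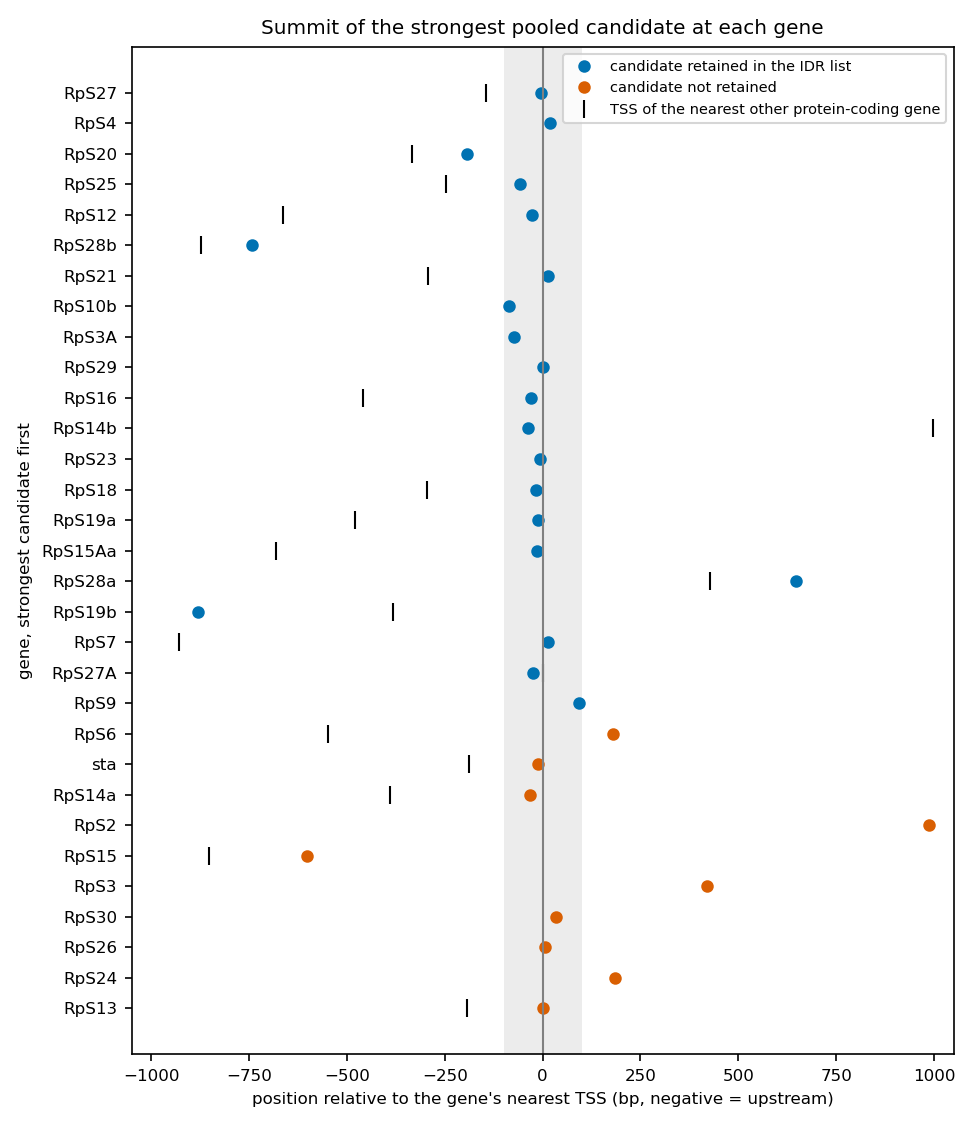
Position in bp of the summit of the strongest pooled candidate relative to the nearest TSS of 31 of the 36 genes with one, strongest first, coloured by whether the candidate was retained in the IDR list; vertical ticks are the TSS of the nearest other protein-coding gene where it lies within 1000 bp (at RpS27A it falls on the zero line). The shaded band marks 100 bp on either side, which holds 17 of the 21 retained summits and 5 of the 10 other summits shown.

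Among the 14 genes whose pooled candidate was not retained, 6 had it within 100 bp of the TSS. Among them were sta, RpS14a, RpS30, RpS26 and RpS13, at -13, -32, 33, 5 and 2 bp. At RpS15 it lay at -602 bp, nearer to the TSS of CG4927. At RpS2 and RpS3 it lay in coding exons, 988 and 421 bp downstream of the TSS. RpS3, RpS15, RpS10a and RpS15Ab, and among genes with an IDR summit RpS28a, had no candidate within 100 bp of a TSS in any of the 3 candidate lists.

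Promoter sequences are shown for the 3 strongest genes and for RpS9 and RpS6 on either side of the IDR limit. Each runs from 130 bases before the TSS nearest the strongest pooled candidate to 30 bases from it, so that base 131 is the TSS, on the strand of the gene. The summit of the strongest pooled candidate lies inside the window at RpS27 and RpS4, at -4 and 20 bp from the TSS. At RpS20, RpS9 and RpS6 it lies outside the window, at -194, 94 and 181 bp. Capitals mark matches to the TCT initiator, to the DREF site (DRE), to the M1BP site or to the TATA box, and the sequence is that of the Release 6 reference (dm6).
RpS27: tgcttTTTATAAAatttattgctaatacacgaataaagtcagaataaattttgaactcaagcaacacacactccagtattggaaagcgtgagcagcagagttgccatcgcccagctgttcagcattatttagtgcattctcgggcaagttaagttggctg
RpS4: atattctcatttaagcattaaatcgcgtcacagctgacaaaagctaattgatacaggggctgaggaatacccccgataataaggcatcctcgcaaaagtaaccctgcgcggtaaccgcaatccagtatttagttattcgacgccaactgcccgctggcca
RpS20: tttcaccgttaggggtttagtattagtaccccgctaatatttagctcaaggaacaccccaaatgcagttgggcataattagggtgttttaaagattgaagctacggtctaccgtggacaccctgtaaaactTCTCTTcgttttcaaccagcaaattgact
RpS9: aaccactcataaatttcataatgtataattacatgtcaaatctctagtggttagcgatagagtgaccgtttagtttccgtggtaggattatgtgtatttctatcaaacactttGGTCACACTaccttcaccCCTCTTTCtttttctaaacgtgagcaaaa
RpS6: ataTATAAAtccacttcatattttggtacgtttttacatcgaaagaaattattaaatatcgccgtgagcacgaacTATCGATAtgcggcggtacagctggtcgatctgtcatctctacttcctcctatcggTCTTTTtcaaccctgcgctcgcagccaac

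These windows lie at chr3R:25247485-25247644 (minus strand) for RpS27, chr3L:13041626-13041785 (plus) for RpS4, chr3R:20822051-20822210 (plus) for RpS20, chr3L:9511502-9511661 (minus) for RpS9 and chrX:7901302-7901461 (minus) for RpS6. The RpS9 window holds an M1BP match that starts at -17 and TCT matches that start at 2 and 4, counting the TSS as 1 with no position 0. The RpS6 window holds TATA letters that start at -127, a DRE at -55 and a TCT match at 2. The windows of RpS27 and RpS4, the strongest genes, held no DRE, M1BP or TCT match.

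The same motifs were counted over 300 bases of every protein-coding promoter, from 250 before the 5'-most TSS to 50 from it. The TCT initiator was searched on the gene's strand, as CCTCTC or CCTCTT or CCTTTC or CCTTTT or TCTCTC or TCTCTT or TCTTTC or TCTTTT with its C within 5 bases of the TSS. It was found at 13 of 38 small-subunit promoters (34.2%) and 1.98% of all protein-coding promoters. The DRE, TATCGATA, was found on either strand at 13 (34.2%) and 9.36%, and the M1BP site, GGTCACACT, at 4 (10.5%) and 6.04%. The shares of promoters with TCT and DRE matches were thus above those of promoters at large, as a description without a test.

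The TATA box letters TATAAA occurred at 21 of 38 promoters (55.3%) and 45.8% of all, anywhere in the window and on either strand. The GAF site GAGAGAG occurred at 0 of 38 and 5.86%. The GCM octamers ATGCGGGT and ATGCGGGC and ATACGGGT and ATACGGGC occurred at 0 of 38 and 0.945%, and at 0 of the 22 IDR summits within 100 bases against 0.566% of all genes' IDR summits. The absence says only that these letters are not in these windows. Each motif was counted on its own, so matches of different motifs may overlap, and the TATA matches at RpS27 lie on both strands and overlap each other.

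Both kinds of gene, with and without an IDR summit, carried these motifs. A TCT match was found at 7 of 22 genes with an IDR summit (31.8%), against 3.45% of all genes with one, and at 6 of 16 genes without (37.5%), against 1.77% of all genes without. The DRE was found at the same counts of small-subunit genes, against 12.8% of all genes with an IDR summit and 8.86% of those without. The TATA letters were found at 14 genes with an IDR summit (63.6%), against 42.3%, and at 7 without (43.8%), against 46.3%. The M1BP site was found at 2 genes of each kind, RpS9 and RpS23 with an IDR summit (9.09%, against 8.04%) and RpS15 and sta without (12.5%, against 5.74%). Around the IDR summits themselves, the DRE lay within 100 bases at 6 of 22 genes (27.3%), against 7.93% of all genes with an IDR summit, and the M1BP site at 1 (4.55%), against 3.45%. The TATA letters lay there at 4 (18.2%), against 31.7%, so their share was below that of all genes around the summits and above it in the promoter windows.

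**Figure D4:**
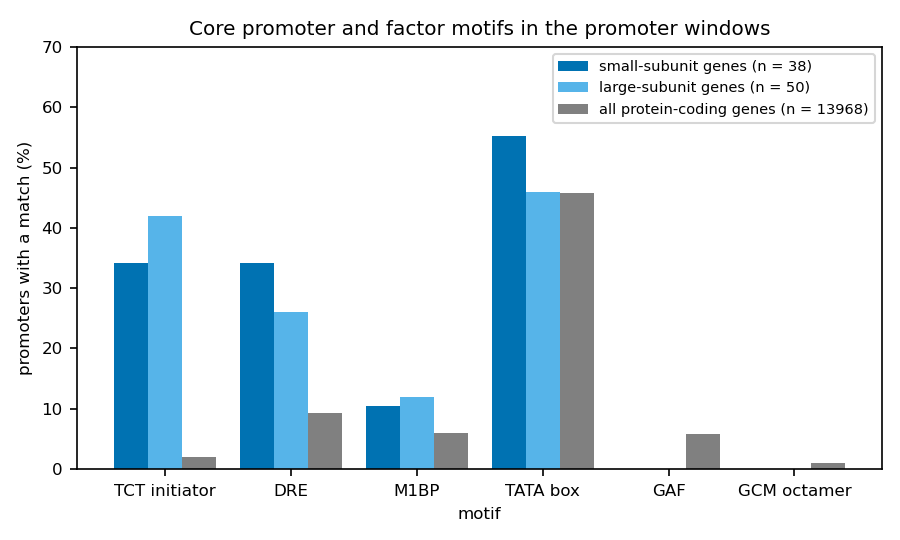
Percentage of promoters (250 bases before to 50 from the 5'-most TSS) with at least 1 match to each motif, in small-subunit genes (n = 38), large-subunit genes (n = 50) and all protein-coding genes (n = 13968). The TCT initiator stands at 34.2%, 42.0% and 1.98%, the DRE at 34.2%, 26.0% and 9.36%, and no small-subunit or large-subunit promoter has a GAF or GCM match.

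Some of these proteins are encoded by a pair of genes, and within 3 of the 5 pairs described only 1 copy had an IDR summit. RpS10b had pooled signal 119, and RpS10a, which has no intron, had no pooled candidate within 1 kb. RpS15Aa had pooled signal 72.2, with ranks 2407 and 1078, and RpS15Ab, also without an intron, had no pooled candidate. In both of these pairs the copy with introns carried the IDR summit.

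RpS14a and RpS14b lie in tandem on the X chromosome and encode proteins with 100% identity over 151 residues. RpS14b had pooled signal 87.0 and ranks of 975 and 1101 in replicates 2 and 3, and RpS14a had 47.6 and ranks of 1889 and 2752. The replicate 3 rank of RpS14a belonged to a summit at -249 bp, and its candidate at -30 bp ranked 4909 there. The 2 copies fell on either side of the IDR limit, with both regions close to the TSS in the pooled list (-38 and -32 bp). For the RpS19 pair, the RpS19a summit lay at its own TSS and that of RpS19b did not. For the RpS28 pair, RpS28b had a summit at its own TSS and RpS28a did not. In each of the 5 pairs, 1 copy had an IDR summit within 100 bp of its own TSS (RpS10b, RpS14b, RpS15Aa, RpS19a and RpS28b).

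Identity between copies was lower over the promoters than over the proteins. Protein identity was 73.6% for RpS10, 97.7% for RpS15A, 66.0% for RpS19 and 81.5% for RpS28, and coding sequence identity reached 98.2% for RpS15A and 97.8% for RpS14. Identity of the 300-base promoter windows, by global alignment, was 41.2% to 46.8% in the 5 pairs. No stretch of 50 or more bases within 250 bp of the 5'-most TSS of any of the 38 genes had an exact match elsewhere in the reference, so copies can be told apart there by reads of that length. The read length is not given in the sources used here.

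**Figure D5:**
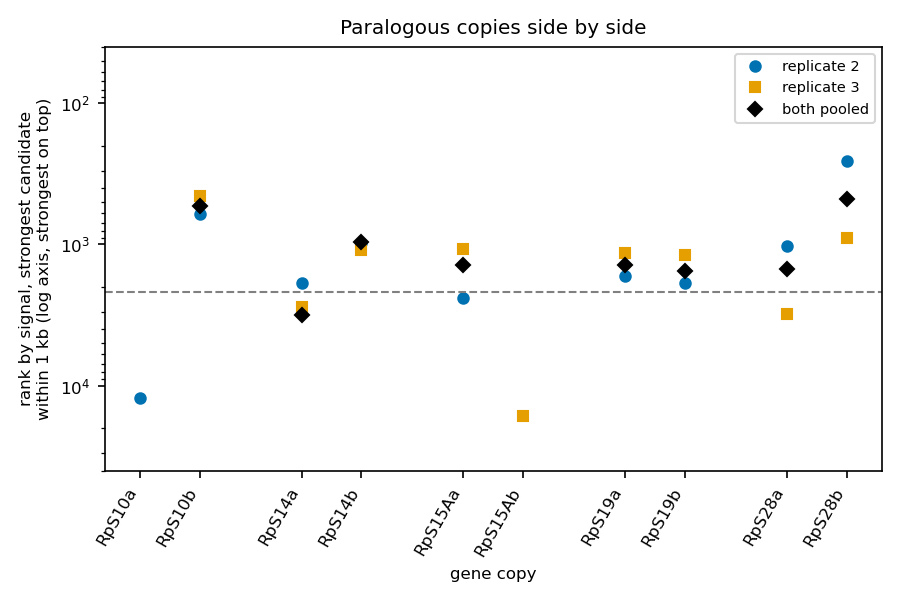
Rank by signal (log axis, strongest on top) of the strongest candidate within 1 kb of a TSS for both copies of each of the 5 gene pairs, in replicate 2, replicate 3 and both pooled. The dashed line is rank 2177: the pooled ranks of both RpS19 and both RpS28 copies lie above it, and those of 1 copy of each other pair do; RpS10a and RpS15Ab have no pooled candidate.

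The replicates differed in how many of these genes they reached. With each replicate's list limited to its top 2177 regions, replicate 2 reached 24 of 38 genes (12.8% of all protein-coding genes) and replicate 3 reached 19 (12.7%), a mean of 21.5 ± 3.54 (SD, n = 2). Both reached 17 of them, against 9.33% of all genes, and all 17 had an IDR summit. Replicate 2 alone reached 7 genes, among them RpS14a, RpS6, sta and RpS26, which had no IDR summit, and RpS28a and RpS7, which had one. Replicate 3 alone reached RpS27A and RpS15Aa. Among all 13968 protein-coding genes, replicate 2 reached 1783, replicate 3 reached 1773 and both reached 1303, so the replicates differed at other genes too. RpS9 had an IDR summit with neither replicate placing it among its 2177 strongest (ranks 2298 and 3893).

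The strongest candidate ranked higher in replicate 2 at 23 of the 36 genes with a candidate in both replicates, against 49.2% of 7436 protein-coding genes. Of the 14 without an IDR summit, 11 ranked higher in replicate 2, against 49.3% of all such genes, and of the 22 with one 12 did, against 48.7%. The largest gap was at RpS26, with rank 1509 and signal 37.1 in replicate 2 and rank 28262 and signal 7.81 in replicate 3. In the other direction it was at RpS3, with rank 13151 in replicate 2 and rank 3522 in replicate 3. The replicates' summits lay 209 bp apart at RpS26 and 89 bp apart at RpS3, so the ranks compared are not those of 1 position. Across the 36 genes the ranks had a Spearman rho of 0.77, and 0.69 across all genes with both, where the points share the same libraries. The strongest summits of the replicates lay a median of 48 bp apart over the 36 genes, and 25.5 bp over the 22 with an IDR summit.

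At 21 of the 22 genes each replicate placed a candidate no more than 100 bp from the IDR summit (95.5%), against 94.5% of all genes with an IDR summit. Within 50 bp it was 18 of 22, against 75.9%. All 22 met a limit of 250 bp, against 99.9%.

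Features that the choice of genes did not use were also described. By place in the subunit, 13 of 18 genes for proteins of the head had an IDR summit, with a median pooled rank of 1024, and 9 of 20 genes for the body and platform, with a median of 2385. The share over all protein-coding genes was 12.6%. This split was not tested, and 4 of the 13 strongest summits in the head group, those of RpS20, RpS19b, RpS28a and RpS28b, lay nearer to neighbouring genes. With IDR summits within 100 bp of the gene's own TSS the counts were 10 of 18 and 9 of 20, against 4.39% of all protein-coding genes.

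The genes are short, with a median length of 1376 bp against 2164.5 bp for all protein-coding genes, and a median of 2 introns in both. Small nucleolar RNAs, which guide modification of ribosomal RNA, lie inside 13 of the 38 genes on the same strand, against 0.53% of protein-coding genes (74). An IDR summit was present at 9 of those 13 genes, at 13 of the 25 other small-subunit genes and at 47.3% of all 74 host genes, the 13 included. It was present at 12.6% of all protein-coding genes. GC content within 100 bp of the strongest candidate's summit had a median of 45.0% at the 22 genes, against 37.3% at all 2177 IDR summits. The 22 summits lie within 1 kb of a TSS, and the 2177 were taken wherever they lie, so the 2 sets differ in position.

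Related gene lists were set beside this one without a test. The large-subunit genes had an IDR summit in 34 of 50 cases (68.0%), with a median pooled rank of 730 and a median offset of -29.5 bp. Genes of translation initiation and elongation factors had one in 16 of 51 cases (31.4%), with a median offset of -34.5 bp. Genes of the small and large mitochondrial ribosomal subunits had one in 5 of 26 (19.2%) and 11 of 47 (23.4%), with median offsets of -199 and -223 bp. The corresponding values of the small-subunit genes were 57.9% and -21 bp, and of these 4 lists the large-subunit genes came closest to both.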

How the data were processed

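ChIP-seq regions from 2 embryo libraries were analysed in dm6. The deposited file lists record that the authors derived the candidate lists from alignments plus a control file, and the final list from all 3 candidate lists by IDR. Which caller and which IDR cutoff were used is not given in the sources used here. The deposited signal values and the deposited −log10 q-values are the authors' own, and served to order or filter regions inside 1 list. Summits were the region start plus the deposited summit offset. Region ends lay within the Release 6 chromosome lengths. TSSs came from all transcripts in Ensembl 115. Each gene was given the summits within 1 kb of any of its TSSs, and the strongest was described. Depth is unknown.

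The genes, gene lists and summaries were chosen with earlier results of these data known. By the rule for named genes, every gene was counted, and values were given for the 12 strongest, those with no IDR summit, paralogous pairs and the largest replicate gaps. Sequence was chosen for the 3 strongest, the weakest with and the highest without an IDR summit, and 1 pair. Some of these genes, that pair included, enter every count but are not reported here by name. No genes are replicates, and no p-values were computed. Alternatives changed the TSS distance, TSS choice, replicate, list and motif window. The overlap code was tested on simulated data. Copies were aligned with Biopython 1.88, and exact matches were found with BLAST 2.17.0. The protein sequences were translated from the reference and are not printed. The dm3 lists were not used here.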

Additional observations from a re-analysis of the deposited data

How the results depend on the processing

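Of 51 alternative values, 44 stayed within 1.5 times the main count or within the spread between replicates. This tally is a loose description and no measure of robustness. Counts of 36 out of 38 cannot rise by 1.5 times, and counts of 0 are included. A fall from 36 to 25 genes with a candidate in both replicates, at 100 bp, still fell within the limit. The spreads for rank and offset came from the values without 1 replicate, which are themselves among the alternatives. The count of 22 genes with an IDR summit became 20 within 250 or 500 bp of a TSS, 23 within 2 kb and 15 with IDR regions above the list's median signal. Shares over all genes are not given for these 4 settings, so the counts do not show whether the contrast with other genes held. Within 100 bp (added after the data were seen) the count was 19, against 4.39% of all protein-coding genes. With pooled candidates at a q-value of 0.05 or below it was 32, against 31.0%. The IDR list was made from both replicates, so it could not be remade without 1 of them. The strongest regions of the remaining replicate's own list, as many as the IDR list holds, were used in its place. They reached 19 genes without replicate 2, against 12.7%, and 24 without replicate 3, against 12.8%. These are the replicate counts already given above, and they do not check the IDR call. The median offset of -21 bp became -29 bp with IDR regions above the median signal. With the strongest regions of the remaining replicate, which are not IDR summits, it was -30 bp without replicate 2 and -20 bp without replicate 3. The median rank of 1511.5 became 1303 in the whole candidate list of replicate 3 and 1665 in that of replicate 2. The count of 36 genes with a candidate was 37 in either list. Within 100 bases of the IDR summit, of which there are 22 and not 38, the DRE was found at 6 genes, the M1BP site at 1 and the TATA box at 4, from a smaller window and fewer genes; for the TATA box the comparison with all genes turned, to 18.2% against 31.7%, and the cause was not tested. The median distance of 48 bp between the replicates' summits became 29.5 bp with the candidates nearest the pooled summit and 25.5 bp over genes with an IDR summit. With no read counts, neither depth nor counting error of a region can be given. No paired analysis was possible because both libraries belong to 1 group.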
